A study of Saccharomyces cerevisiae with 4 samples.

Results

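The small-subunit processome is the large nucleolar particle that folds, modifies and cleaves the start of the ribosomal RNA precursor so that the 40S subunit can form. It assembles from pre-built modules, the UTP-A, UTP-B and UTP-C complexes, the U3 box C/D ribonucleoprotein and the Mpp10 complex, around the RNA while RNA polymerase I is still transcribing it. Later factors carry the 40S precursor to the cytoplasm and finish the 18S RNA there. In growing yeast the genes for these proteins are transcribed together as part of the ribosome biogenesis regulon, under activators such as Sfp1 and repressors such as Dot6, Tod6 and Stb3.

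Transcripts of 50 genes of this machinery were followed out of 5449 measured. They are a list of processome proteins, box C/D core proteins and 40S maturation factors, each matched by gene symbol to an Affymetrix Yeast Genome 2.0 probeset. The list was chosen with earlier results of these data known. All 50 had a probeset of their own whose name carries no mark of sharing probes with other sequences. The cultures were Saccharomyces cerevisiae BY4741 grown in YPD at 30°C, with 2 cultures given CG-1521, a histone deacetylase inhibitor, at 50 μM and 2 given vehicle. Both groups were sampled after 1 h, and the 2 cultures of a group came from independent biological experiments, with 1 array each.

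BY4741, a haploid of mating type a, lacks working HIS3, LEU2, MET17 and URA3 genes, and both groups share these lesions. MET17 and URA3 lay under background on all 4 arrays, between 1.19 and 1.99 on the log2 scale. LEU2 was at 2.77 and 3.09 with CG-1521 and at 2.08 and 2.42 in the control cultures, close to background, and HIS3, whose deletion in this strain is partial, gave signal between 10.21 and 10.91. Background, the 95th percentile of the S. pombe probesets on the same array, was 2.42 to 2.45. Of the mating-type markers, the 6 a-cell genes read 10.81 or more on every array, while the 4 alpha-cell genes also read above background on every array: MF(ALPHA)2 at 9.20 to 9.59, SAG1 at 7.62 to 7.86, STE3 at 4.63 to 5.17 and MF(ALPHA)1 at 2.73 to 3.79. All 50 processome and maturation genes stood far above background on every array, the lowest at 8.76. The values are relative to the RNA put on each array and say nothing of the total RNA per cell, and fewer cells carrying these transcripts cannot be told apart from less of them in each cell.

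After CG-1521 the machinery's transcripts fell broadly. Of the 50 genes 42 were lower, 0 were higher and 8 did not pass (limma, Benjamini-Hochberg adjusted p under 0.05 over all 5449 genes). Among all genes 16.8% were lower and 12.9% higher. All 50 log2 fold changes were negative, so none was higher at an unadjusted p under 0.05 either. They ran from -1.70 to -0.31 with a median of -0.80, against a median of -0.04 over all genes. In linear terms the 42 called genes fell 1.31-fold to 3.24-fold. Both CG-1521 values lay below both control values for 49 of the 50, where this held for 40.9% of all genes, and UTP30 was the exception. For a single gene, groups that do not overlap therefore say little. Leaving out control replicate 1 left 2 of the 50 called and leaving out control replicate 2 left 1, DHR2, and all 50 log2 fold changes stayed negative in both cases.

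A drop of at least 1 on the log2 scale was reached by 9 of the 50, and by 3.3% of all genes. The 9 were DHR2, FAF1, UTP4, NOP14, KRR1, DIM1, ECM16, RRP5 and UTP11. They make up 18.0% of the list and 5.0% of the 180 genes with such a drop. A further 31 genes lay between -1 and -0.5, and 10 lay above -0.5. Of the 50, 32 were below the 10th percentile of all genes, which was -0.67.

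**Figure D1:**
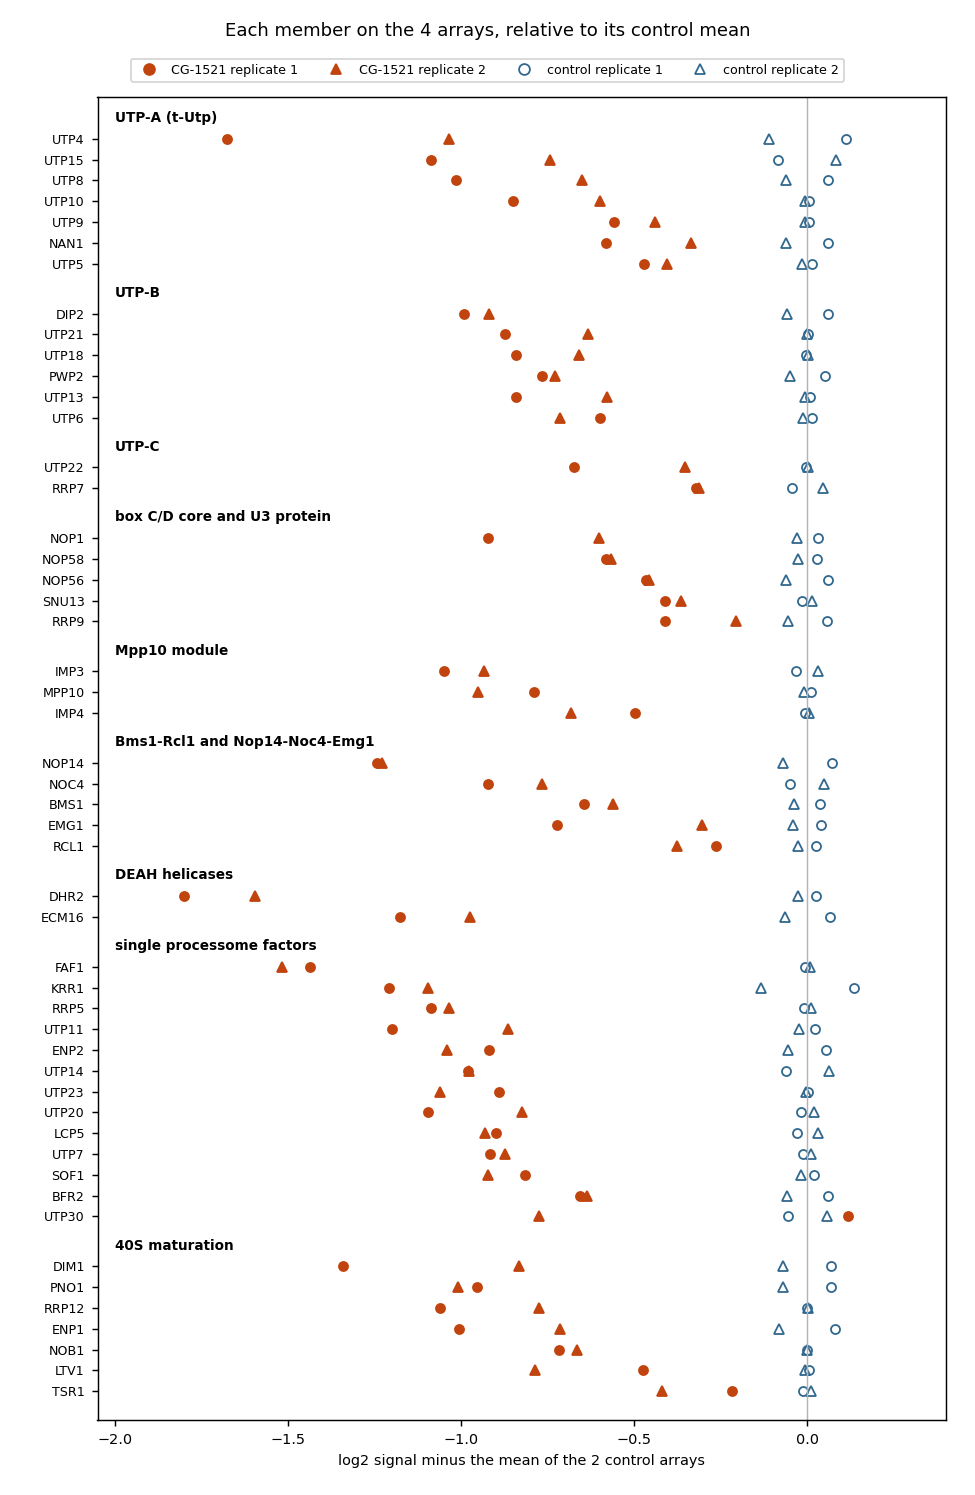
Log2 signal of each of the 50 genes on the 4 arrays, minus the mean of its 2 control arrays (x axis), by subcomplex (rows). Filled red symbols are CG-1521 arrays and open blue symbols control arrays, with circles for replicate 1 and triangles for replicate 2. The red symbols lie left of the blue ones for 49 genes, and UTP30 has 1 CG-1521 array to the right of both control arrays.

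The list holds 2 DEAH-box RNA helicases, and 1 of them, DHR2, had the largest fall of the 50 genes. DHR2, a nucleolar helicase needed for 18S RNA production, read 9.15 and 9.36 on the CG-1521 arrays and 10.98 and 10.93 on the control arrays. The CG-1521 values lay at least 1.57 below either control value. DHR2 fell by 1.70 (SE 0.12, adjusted p = 0.00695), or 3.24-fold, and ranked 13 of 5449 from the most lowered gene. ECM16, also known as Dhr1, the helicase that strips the U3 RNA from the pre-ribosomal RNA, read 10.71 and 10.91 with CG-1521 and 11.95 and 11.82 in control. It fell by 1.07 (SE 0.12, adjusted p = 0.00992), and the groups did not overlap. UTP14, the protein known to activate Dhr1, fell by 0.98 (SE 0.10), with 10.51 and 10.52 on the CG-1521 arrays and 11.43 and 11.56 on the control arrays.

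UTP-A, whose proteins bind the start of the precursor RNA as it emerges, was lower in 6 of 7 genes with a median of -0.72. The WD-repeat protein UTP4 read 9.47 and 10.12 with CG-1521, against 11.26 and 11.04 in control. Its CG-1521 cultures differed by 0.64, with replicate 1 the lower, yet both stayed 0.92 or more below the control cultures. UTP4 fell by 1.35 (SE 0.24, adjusted p = 0.0215). UTP5, another WD-repeat subunit, fell by 0.44 (SE 0.10, adjusted p = 0.0338), with 11.79 and 11.86 against 12.28 and 12.25 in control, the smallest change in the complex. Between these lay UTP15 (-0.91), UTP8 (-0.83), the HEAT-repeat protein UTP10 (-0.72) and UTP9 (-0.50), all lower. Without CG-1521 replicate 1 the calls of UTP5 and UTP9 were lost (adjusted p = 0.0619 and 0.0526). NAN1, also called Utp17, read 11.84 and 12.08 with CG-1521 and 12.48 and 12.36 in control. It did not pass (-0.46, SE 0.13, adjusted p = 0.0571). Its groups did not overlap, but both CG-1521 values lay below both control values for 40.9% of all genes. On all 7 genes CG-1521 replicate 1 read below replicate 2, by a median of 0.25. Over the whole list this order held for 37 of 50 genes, and over all genes for 49.0%. The median SD between replicates over the list was 0.11 with CG-1521 and 0.04 in control.

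UTP-B, the module that contacts U3 and the precursor's 5′ end, was lower in all 6 genes and by similar amounts. DIP2, or Utp12, showed the largest change, with 9.80 and 9.88 on the CG-1521 arrays and 10.86 and 10.74 on the control arrays. It fell by 0.96 (SE 0.11, adjusted p = 0.00937). UTP6 showed the smallest, with 10.11 and 9.99 with CG-1521 and 10.72 and 10.69 in control, a fall of 0.66 (SE 0.10, adjusted p = 0.0170). No UTP-B gene had overlapping groups, where 40.9% of all genes had both CG-1521 values below both control values. The tandem WD-repeat proteins UTP21 (-0.75), PWP2 (-0.75) and UTP13 (-0.71) and the subunit UTP18 (-0.75) lay between them, so the complex spanned 0.30 on the log2 scale, against 0.92 for UTP-A.

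In UTP-C 0 of 2 listed genes passed in the main fit. UTP22 read 10.23 and 10.55 with CG-1521 and 10.90 and 10.90 in control (-0.51, SE 0.14, adjusted p = 0.0539). RRP7, its partner, read 10.58 and 10.59 with CG-1521 and 10.86 and 10.95 in control (-0.32, SE 0.10, adjusted p = 0.0718). Both genes had non-overlapping groups with CG-1521 below control, as did 40.9% of all genes. The 95% intervals of the UTP22 and RRP7 log2 fold changes, -0.88 to -0.14 and -0.58 to -0.06, did not reach 0. Such intervals are per gene and, unlike the adjusted p, take no account of the number of genes tested. The intervals of NAN1, RCL1, EMG1 and TSR1, which did not pass, did not reach 0 either. UTP-C also holds casein kinase 2, whose genes have many other roles. The kinase subunits CKA2 (-0.43), CKB2 (-0.43), CKB1 (-0.39) and CKA1 (-0.07) did not pass either. RRP36, a further UTP-C protein counted here with the other small-subunit factors, was lower (-0.50, SE 0.11, adjusted p = 0.0327). RRP36 and the kinase genes were named after their values were seen. Other fits moved these calls. With the replicate number as a block the box C/D genes did not pass either, and with an intensity trend 48 of the 50 genes were lower. Whether UTP-C differed from the other modules was not tested.

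The box C/D core proteins, which sit on U3 and on the guide RNAs for 2′-O-methylation, were lower in 4 of 5 genes, with a median of -0.46. All 5 changes were smaller than the median of the 50 genes. NOP1, the methyltransferase known as fibrillarin in other species, read 10.77 and 11.09 with CG-1521 and 11.73 and 11.66 in control. It fell by 0.76 (SE 0.14, adjusted p = 0.0233). The related scaffold proteins NOP58 and NOP56 fell by 0.57 and 0.46. SNU13, an RNA-binding protein shared with the splicing machinery, fell by 0.39 (SE 0.10, adjusted p = 0.0428), with 12.46 and 12.51 on the CG-1521 arrays and 12.86 and 12.89 on the control arrays. Without CG-1521 replicate 1 the calls of NOP56 and SNU13 were lost (log2 fold changes -0.46 and -0.36). With the replicate number as a block in the limma fit all 4 calls were lost, at adjusted p from 0.0506 (NOP1) to 0.122 (SNU13). RRP9, found on U3 but not on the other box C/D particles, had the smallest change of all 50 genes. It read 10.25 and 10.46 with CG-1521 and 10.72 and 10.61 in control (-0.31, SE 0.12, adjusted p = 0.120). Its groups were 0.15 apart at the nearest, and its 95% interval ran from -0.63 to 0.01.

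All 3 genes of the Mpp10 module fell. IMP3, which with Imp4 helps U3 pair with the precursor RNA, read 8.76 and 8.88 with CG-1521 and 9.78 and 9.85 in control, a fall of 0.99 (SE 0.10, adjusted p = 0.00935). MPP10 itself fell by 0.87. IMP4 fell by 0.59 (SE 0.11, adjusted p = 0.0242), with 10.63 and 10.44 against 11.12 and 11.13 in control. In none of the 3 did the groups overlap, where 40.9% of all genes had both CG-1521 values below both control values. For MPP10 and IMP4 it was CG-1521 replicate 2 that read lower.

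**Figure D2:**
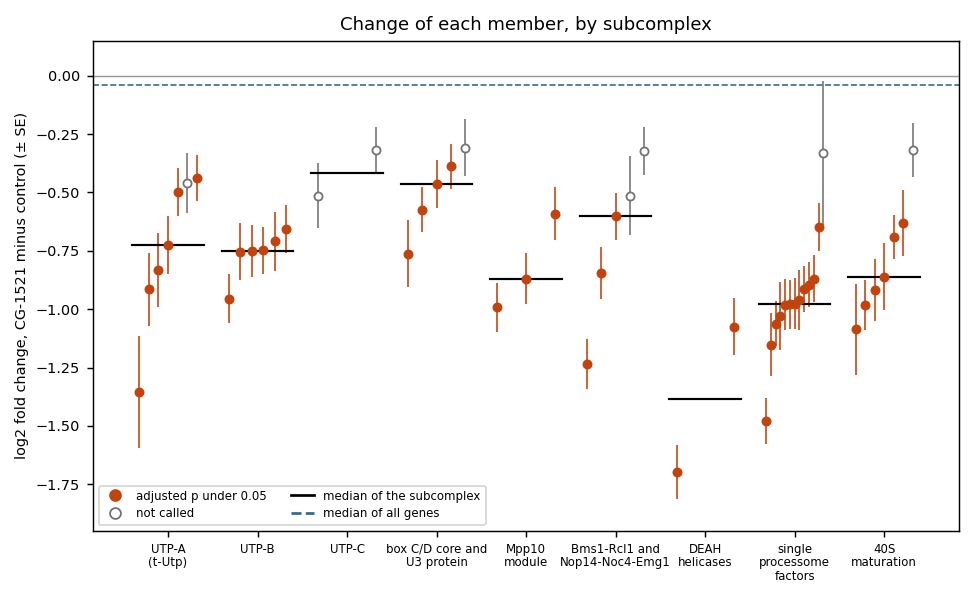
Log2 fold change of each of the 50 genes, CG-1521 minus control, with its standard error (y axis), by subcomplex (x axis). Filled points passed at an adjusted p under 0.05, open grey points did not, black bars are medians of a subcomplex and the dashed line is the median of all genes, -0.04. The 2 helicases have the lowest median, -1.39, and the UTP-C and box C/D medians, -0.42 and -0.46, lie nearest to 0.

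Among the 5 genes around the GTPase Bms1 and the Nop14 complex 3 were called lower, and all 5 log2 fold changes were negative. NOP14, a scaffold that joins Noc4 and Emg1, read 9.51 and 9.52 with CG-1521 and 10.82 and 10.68 in control. It fell by 1.23 (SE 0.11, adjusted p = 0.00768), and its CG-1521 arrays differed by only 0.02. Its partner NOC4 fell by 0.84 and BMS1 by 0.60. RCL1, which Bms1 delivers to the particle, read 11.82 and 11.71 with CG-1521 and 12.11 and 12.06 in control and did not pass (-0.32, SE 0.10, adjusted p = 0.0768). EMG1, the methyltransferase that modifies a pseudouridine of the 18S RNA, read 10.73 and 11.15 with CG-1521 and 11.49 and 11.41 in control. It did not pass either (-0.51, SE 0.17, adjusted p = 0.0806), with CG-1521 cultures 0.42 apart. The groups of RCL1 and EMG1 did not overlap, with CG-1521 below control, as was so for 40.9% of all genes. The calls among these genes depended on the limma fit. BMS1 lost its call with the replicate number as a block (adjusted p = 0.0592). With an intensity trend RCL1 and EMG1 were called lower too (adjusted p = 0.0223 and 0.0340). Whether these genes differed from one another was not tested.

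Among 13 further processome factors 12 fell, with a median of -0.98. FAF1, a factor needed for 18S RNA production, had the smallest adjusted p of the list. It read 9.33 and 9.25 with CG-1521 and 10.76 and 10.77 in control, a fall of 1.48 (SE 0.10, adjusted p = 0.00692) or 2.78-fold. RRP5, an RNA-binding protein that serves the precursors of both subunits, read 11.03 and 11.08 with CG-1521 and 12.11 and 12.13 in control. It fell by 1.06 (SE 0.10, adjusted p = 0.00775). In both genes the replicates of a group differed by less than 0.1 while the groups lay more than 1 apart.

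The KH-domain protein KRR1 fell by 1.15, UTP11 by 1.03, ENP2 by 0.98 and UTP23, a PIN-domain protein linked to the snR30 RNA, by 0.98. The large HEAT-repeat protein UTP20 fell by 0.96, LCP5 by 0.91, UTP7 by 0.89, SOF1 by 0.87 and BFR2 by 0.65. Their groups did not overlap, with CG-1521 below control, as was so for 40.9% of all genes. In log2 fold change 10 of the 13 genes, UTP14 and RRP5 included, lay between -1.15 and -0.87.

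UTP30, a nonessential protein related to ribosomal protein L1, was the gene that stood apart. It read 10.47 and 9.58 on the CG-1521 arrays and 10.30 and 10.41 on the control arrays. CG-1521 replicate 1 was above both control cultures and replicate 2 was 0.72 or more below them, a gap of 0.89 between treated cultures and the widest of the list. Its log2 fold change was -0.33 (SE 0.31, adjusted p = 0.449), with a 95% interval from -1.14 to 0.48. Without CG-1521 replicate 2 it turned to 0.12 (adjusted p = 0.454), and without CG-1521 replicate 1 it was -0.77 (adjusted p = 0.0253).

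Factors that act on the pre-40S particle fell along with the early processome. Of 7 genes 6 were lower, with a median of -0.86. DIM1, the dimethyltransferase of the 18S RNA, read 9.59 and 10.10 with CG-1521 and 11.00 and 10.86 in control. It fell by 1.09 (SE 0.20, adjusted p = 0.0218), with the CG-1521 cultures 0.51 apart and neither within 0.76 of a control culture. PNO1, a KH-domain protein that partners the nuclease Nob1, fell by 0.98, the export factor RRP12 by 0.92, and ENP1, the yeast bystin, by 0.86. NOB1, the nuclease that makes the final 18S cut, fell by 0.69 and the export adaptor LTV1 by 0.63. TSR1, a GTPase-like protein of the pre-40S particle, read 11.96 and 11.75 with CG-1521 and 12.16 and 12.18 in control. It did not pass (-0.32, SE 0.12, adjusted p = 0.1002), with groups 0.21 apart at the nearest.

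The subcomplexes therefore ranged in median from -1.39 for the helicases to -0.42 for UTP-C, with between 2 and 13 genes each. The box C/D genes ran from -0.76 to -0.31, and the UTP-A genes from -1.35 to -0.44. In each of the 9 groups every gene had a negative value. Differences between subcomplexes were not tested, since genes of a complex are not replicates of a condition.

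Most other small-subunit factors were lower too. Of 41 further small-subunit factors 31 were lower and 0 higher, with a median of -0.77. Those with the smallest p were TSR2 (-1.13), the chaperone of ribosomal protein Rps26, NOP9 (-1.21), the helicase DBP4, or HCA4 (-1.13) and RRT14 (-1.15). ESF1 (-0.04), BUD21 (0.10) and the kinase HRR25 (0.04), named after their values were seen, did not pass. All 4 core proteins of the H/ACA particles, which guide pseudouridylation, were lower: CBF5 (-0.63), GAR1 (-0.66), NHP2 (-0.59) and NOP10 (-0.43).

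Assembly factors of the large subunit gave counts close to these. Of 69 genes 61 were lower and 1 was higher, with a median of -0.79. The smallest p-values belonged to NOP7, NOP13, NIP7 and RRP1, at log2 fold changes of -1.28, -1.38, -1.07 and -1.08. The gene that rose was REH1 (0.60, adjusted p = 0.0272), a late cytoplasmic 60S factor, named after its value was seen. For RNA polymerase I and its factors 8 of 15 genes were lower, with a median of -0.45, and the subunits RPA135 (-1.11), RPA34 (-0.87), RPA43 (-0.93) and RPA190 (-1.27) had the smallest p-values. Small-subunit ribosomal protein genes were lower in 10 of 53, a share of 18.9% that is near the 16.8% of all genes, with a median of -0.30. Yet 0 were higher and all 53 log2 fold changes were negative. Both CG-1521 values lay below both control values for 49 of them, where this held for 40.9% of all genes. The ribosomal protein genes with the smallest p were RPS28B, RPS23B, RPS0B and RPS8B, at -1.02, -0.59, -0.94 and -0.53. Many of these come in near-identical copies, and the array cannot assign a value to 1 copy with certainty.

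**Figure D3:**
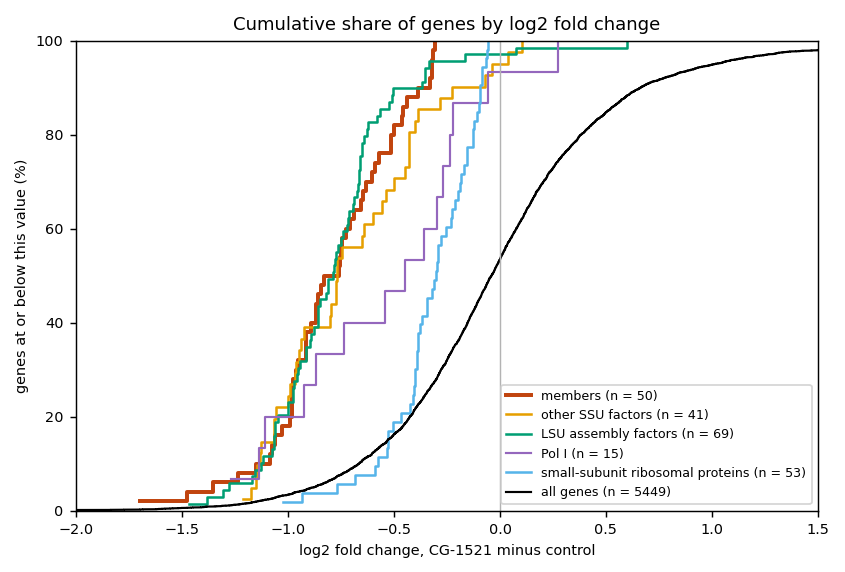
Cumulative share of genes (y axis, percent) at or below each log2 fold change, CG-1521 minus control (x axis), for the 50 genes (red, "members"), 4 other lists and all genes; the x axis is cut at -2 and 1.5. The curve of the 50 genes runs beside that of the 60S assembly factors (medians -0.80 and -0.79), left of the small-subunit ribosomal proteins (-0.30) and of all genes (-0.04).

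Regulators of ribosome biogenesis and ribosomal protein genes were measured as transcripts too. Of 14 genes 4 were lower (28.6%) and 1 was higher (7.1%), with a median of -0.23. Among all genes 16.8% were lower and 12.9% higher. TOD6, a repressor known to act through the Rpd3 deacetylase complex at ribosome biogenesis promoters, read 9.44 and 9.68 with CG-1521 and 10.34 and 10.34 in control, a fall of 0.78 (SE 0.12, adjusted p = 0.0176). SCH9, the kinase that phosphorylates these repressors under TORC1, fell by 0.52 (adjusted p = 0.0471). IFH1, a coactivator of ribosomal protein genes, fell by 0.48, and the promoter-binding factor TBF1 fell by 0.58. CRF1, a corepressor of ribosomal protein genes, rose by 0.65 (SE 0.17, adjusted p = 0.0477). Transcripts of the activator SFP1 (-0.21, adjusted p = 0.323) and of the repressors DOT6 (0.12, adjusted p = 0.509) and STB3 (-0.05, adjusted p = 0.754) did not pass. Groups overlapped for DOT6 and STB3, and for SFP1 they were 0.02 apart at the nearest.

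The 50 genes are scattered over 14 chromosomes, and 23 of them face a measured gene transcribed away from them across the same intergenic stretch. Orientation was read from the W or C of the systematic names, and this comparison was added after the data were seen. Of the 23 genes of the list 21 were lower, with a median of -0.84. Of their 23 divergent partners, none of them in the list, 4 were lower and 2 higher, with a median of -0.20. The partners' share of lower calls was 17.4%, against 16.8% of all genes. Measured neighbours outside the list in the other orientations were lower in 13 of 50 cases for tandem genes and in 6 of 24 for convergent genes. Differences between these shares were not tested.

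In 22 of the 23 pairs the partner lay above its processome gene. Of the 50 genes of the list, 45 were below the 25th percentile of all genes (-0.35). Most genes of any kind would therefore lie above them, and the count says little about divergent partners as such. NOP14 (-1.23) faces RPN5, a proteasome subunit, which rose by 0.42 (adjusted p = 0.0388). NOB1 (-0.69) faces SGT1, a co-chaperone, which rose by 0.42 (adjusted p = 0.0403). ECM16 (-1.07) faces SAS2, an acetyltransferase subunit, at -0.08, and PNO1 (-0.98) faces MDM32 at 0.02. The partners that fell were NSA2, HIS6, MRPL6 and YCG1, at -1.31, -0.68, -0.72 and -0.41. NSA2, itself a 60S assembly factor, was the partner that lay below its own, LCP5.

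**Figure D4:**
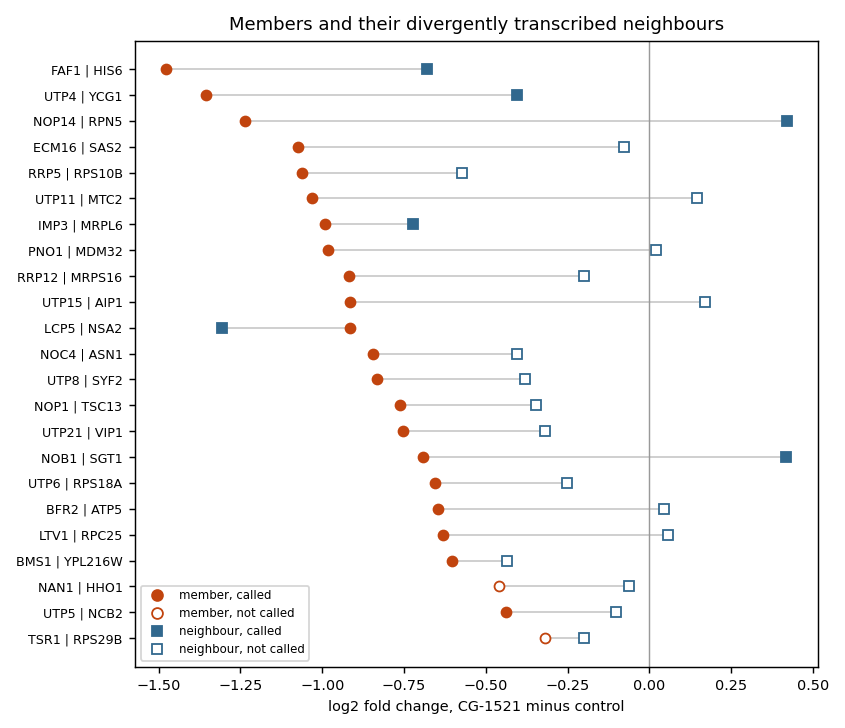
Log2 fold change, CG-1521 minus control (x axis), of 23 genes of the list (red circles, "member") and of the gene transcribed away from each (blue squares, "neighbour"), 1 pair per row. Filled symbols passed at an adjusted p under 0.05. The squares lie right of the circles in 22 rows, with LCP5 and NSA2 as the exception.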

How the data were processed

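The deposited values were log2 signals per probeset, 1 column per array, made with Affymetrix Expression Console and RMA per the submitters' processing notes (version: not given in the sources used here). RMA forces the arrays to nearly equal distributions by quantile normalization, so a shift of all transcripts at once would not show. Gene identifiers tied 5498 of the 10928 probesets to S. cerevisiae genes (R64 names). For 47 genes with several probesets the brightest over the 4 arrays stood for the gene, which left 5449 genes.

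Groups and replicate numbers came from the sample titles. The CG-1521 minus control difference of each gene came from limma 3.58.1 under R 4.3.3 (lmFit, eBayes without trend or block), with 2 residual and 2.69 prior degrees of freedom, and Benjamini-Hochberg adjustment over 5449 genes; p-values were two-sided. SEs are the moderated ones, and the median SE was 0.12. The number of arrays limits the precision. The procedure was also run on simulated arrays with equal spread in both groups and independent arrays. That run does not cover the wider spread between the CG-1521 replicates.

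The 50 genes and the other lists were chosen with earlier results of these data known. Of 264 list entries, 260 had a probeset. Values on all 4 arrays are given for the largest and smallest change in each subcomplex, genes not called and the 5 smallest p-values, with UTP14 and SNU13 added after their values were seen. Others are given by their log2 fold change. Subcomplexes and lists were described by counts and medians, with no test.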

Additional observations from a re-analysis of the deposited data

How the results depend on the processing

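Deviations of same-numbered arrays from their group means correlated at -0.26 across genes. The count of 42 lower genes was 30 with the replicate number as a block (replicate block), and 42 with the pairing crossed, an alternative chosen after seeing the data. It was 48 with an intensity trend, 33 with all probesets fitted together, 38 with a log2 change of at least 0.5 required, and 13 at an adjusted p under 0.01, where 118 genes were lower in all. Leaving out 1 array at a time gave 1 to 45 lower genes, and the lowest counts came without control replicate 2 (1) and without control replicate 1 (2); with 3 arrays the lone culture is assumed to vary like the other group. The count of higher genes was 0 in every setting run, at the unadjusted threshold too, since UTP30 without CG-1521 replicate 2 (0.12, adjusted p = 0.454) was the only value above 0. The median of -0.80 ranged from -0.86 to -0.74 with 1 array left out, and was -0.78, -0.76 and -0.78 with median centring, quantile normalization over S. cerevisiae genes and centring on genes in no list, each with 42 lower genes. Averaging probesets, leaving out dim genes and robust eBayes also gave 42.

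Of the 42 called genes, 30 kept the call in every planned setting other than those without a control array and the stricter adjusted p under 0.01, and DHR2 kept it in those too. The 12 others were lost with the block: the box C/D genes NOP1, NOP56, NOP58 and SNU13, the UTP-A genes UTP5, UTP8 and UTP9, and UTP13, IMP4, BMS1, BFR2 and LTV1. RRP9 was called in no setting. The search for promoter motifs planned for these genes was not run, since no promoter sequence was used here.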
